A study of Mus musculus with 12 samples.

Results

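Contractile actin cytoskeleton genes are described here in cultured mouse astrocytes. The set holds 10 genes of the 54356 counted, chosen by name as smooth muscle and SRF-type contractile genes: Acta2, Tagln, Tagln2, Cnn1, Cnn2, Cnn3, Myl9, Tpm1, Tpm2 and Srf. RNA was sequenced from astrocytes of C57BL/6 mouse cortex or midbrain in 12 libraries, 2 in each of 6 groups. In each region, shPTB cultures carried a short hairpin RNA against PTB, the RNA-binding protein encoded by Ptbp1, and were kept in neuronal differentiation medium for 2 weeks or for 4 weeks. The mock cultures of each region were kept in growth medium. Hairpin, medium and time in culture change together between shPTB and mock, so their parts cannot be told apart. The labels do not say that the 2 libraries of a group came from separate animals or cultures, and the p-values then measure only the spread between these libraries, which may be technical.

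As background, smooth muscle alpha-actin and its partners assemble into the stress fibres with which a cell pulls on its surroundings. The transcription factor SRF binds a short DNA element called the CArG box beside many of these genes. Its cofactors of the MRTF family enter the nucleus when free actin monomers run low, and contractile gene expression then rises. Cultured glia and fibroblasts on a stiff surface are known to express such genes outside muscle. Tropomyosin genes are also known for alternative exons, and PTB represses an internal exon of rat Tpm1.

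Promoter sequences were compared because the genes of the set share this proposed regulator. RefSeq promoters (GRCm38.p6, 250 bases before to 50 bases after the start) matched 9 of the 10 genes by symbol; Tagln had no entry. Both strands were searched for the CArG box by its consensus, for the same box with 1 G or C in its core, and for CATTCC, an element recognised by TEAD factors. A CArG box lay in 3 of the 9 promoters, those of Cnn2, Myl9 and Srf, and 1.63% of 32851 promoters of the same length held one. The Acta2 promoter held 2 boxes with 1 G or C in the core, beginning 84 and 34 bases before the start, and 8.50% of all promoters held at least 1 such box. Neither form was found in Tagln2, Cnn1, Cnn3, Tpm1 or Tpm2, and the CATTCC element was present in Acta2, Tagln2 and Tpm1, against 14.7% of all promoters. The lines below give 3 genes that fell in shPTB cultures (Acta2, Cnn2, Myl9), 1 that was higher (Cnn1) and the regulator Srf, 5′ to 3′ on the gene's strand, with CArG boxes of either form in capitals.
Acta2, chr19:34255324-34255623, minus strand: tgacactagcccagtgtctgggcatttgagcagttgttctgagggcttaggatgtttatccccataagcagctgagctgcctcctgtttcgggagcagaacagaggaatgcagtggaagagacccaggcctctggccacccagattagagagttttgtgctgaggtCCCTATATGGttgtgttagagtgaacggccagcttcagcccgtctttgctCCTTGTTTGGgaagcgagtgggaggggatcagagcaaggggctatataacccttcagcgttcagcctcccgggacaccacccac
Cnn2, chr10:79988350-79988649, plus strand: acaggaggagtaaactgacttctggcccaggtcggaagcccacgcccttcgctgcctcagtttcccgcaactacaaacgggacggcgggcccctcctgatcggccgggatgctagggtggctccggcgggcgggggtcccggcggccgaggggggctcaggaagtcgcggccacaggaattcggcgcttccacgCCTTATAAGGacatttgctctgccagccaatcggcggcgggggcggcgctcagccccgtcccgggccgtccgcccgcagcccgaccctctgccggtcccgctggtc
Myl9, chr2:156775214-156775513, plus strand: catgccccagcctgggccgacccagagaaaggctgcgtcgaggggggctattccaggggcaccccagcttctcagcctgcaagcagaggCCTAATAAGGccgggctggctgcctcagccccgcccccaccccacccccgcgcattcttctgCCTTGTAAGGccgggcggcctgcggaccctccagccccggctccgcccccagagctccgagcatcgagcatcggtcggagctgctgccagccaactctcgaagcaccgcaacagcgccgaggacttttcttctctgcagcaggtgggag
Cnn1, chr9:22099003-22099302, plus strand: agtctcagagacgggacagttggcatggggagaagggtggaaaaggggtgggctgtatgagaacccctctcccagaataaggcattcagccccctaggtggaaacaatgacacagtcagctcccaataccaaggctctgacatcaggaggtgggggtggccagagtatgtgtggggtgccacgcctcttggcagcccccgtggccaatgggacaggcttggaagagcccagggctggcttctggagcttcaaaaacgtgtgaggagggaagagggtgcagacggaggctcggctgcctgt
Srf, chr17:46556113-46556412, minus strand: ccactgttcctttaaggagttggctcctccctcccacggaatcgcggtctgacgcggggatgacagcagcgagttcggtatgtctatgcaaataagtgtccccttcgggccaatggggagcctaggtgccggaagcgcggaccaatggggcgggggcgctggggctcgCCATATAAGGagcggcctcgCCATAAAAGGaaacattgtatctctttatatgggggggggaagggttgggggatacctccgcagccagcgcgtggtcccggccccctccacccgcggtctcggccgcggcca
In Cnn2 the box began 56 bases before the start, in Myl9 161 bases before it, with a second box of the looser form at 99 bases, and in Srf 82 and 62 bases before it. A match describes the letters of this window only.

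The libraries held 6018655 to 11373861 assigned reads. Mitochondrial genes took 36.4 to 48.3% of the reads in shPTB libraries and 16.9 to 22.7% in mock libraries. Levels are given as CPM, counts scaled to library size and by TMM (factors 0.680 to 0.953 in shPTB and 1.22 to 1.69 in mock). In shPTB libraries 3 reads, near the upper 95% limit for a count of 0, equal 0.331 to 0.577 CPM. That limit covers counting error only. Ptbp1, the target of the hairpin, fell in cortex at 2 and 4 weeks and in midbrain at 2 weeks by 1.53, 1.24 and 1.22 on the log2 scale (edgeR adjusted p = 0.000267, 0.000814 and 0.00122), while in midbrain at 4 weeks it stood at 155.3 to 169 CPM, against at least 208 CPM in mock (log2 fold change -0.50, adjusted p = 0.0744). Astrocyte identity was checked with 8 markers, which all averaged at least 1 CPM in both shPTB and mock libraries. They summed to 13360 to 14050 CPM in cortical shPTB libraries, against 12340 to 20710 CPM in mock. In midbrain the sums were 7068 to 7493 CPM at 2 weeks and 9265 to 9767 CPM at 4 weeks of shPTB. Midbrain mock had 10830 to 13760 CPM. Gfap made up most of these sums, with 12370 and 12520 CPM in cortex at 2 and 4 weeks of shPTB, against 15260 CPM in mock. In midbrain Gfap had 6012 and 8262 CPM, against 11090 CPM in mock. Single markers moved both ways: at 4 weeks 4 of the 8 were lower and 3 higher in cortex, and 4 lower and 2 higher in midbrain, with Aldh1l1 at -2.09 and -2.22 and Slc1a3 at -1.32 and -1.22 on the log2 scale in cortex and midbrain.

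Of the 10 genes, 6 fell at both times in both regions: Acta2, Tagln, Tagln2, Cnn2, Myl9 and Tpm2. Both times of a region are set against the same mock libraries. Shares of all genes are given below for each comparison, and the share lower in all 4 is not given. Acta2 and Tagln fell most: Acta2 was 47.6-fold to 89.4-fold lower than in mock. Cnn1 was higher in all 4 comparisons with mock, and Tpm1 in the cortical ones, but both of these depended on how libraries were scaled, as given with each gene. Cnn3 passed the test in none of the 4 comparisons, and Srf had too few reads to be tested. In these bulk libraries, fewer cells that express a gene and less RNA per cell cannot be told apart.

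**Figure D1:**
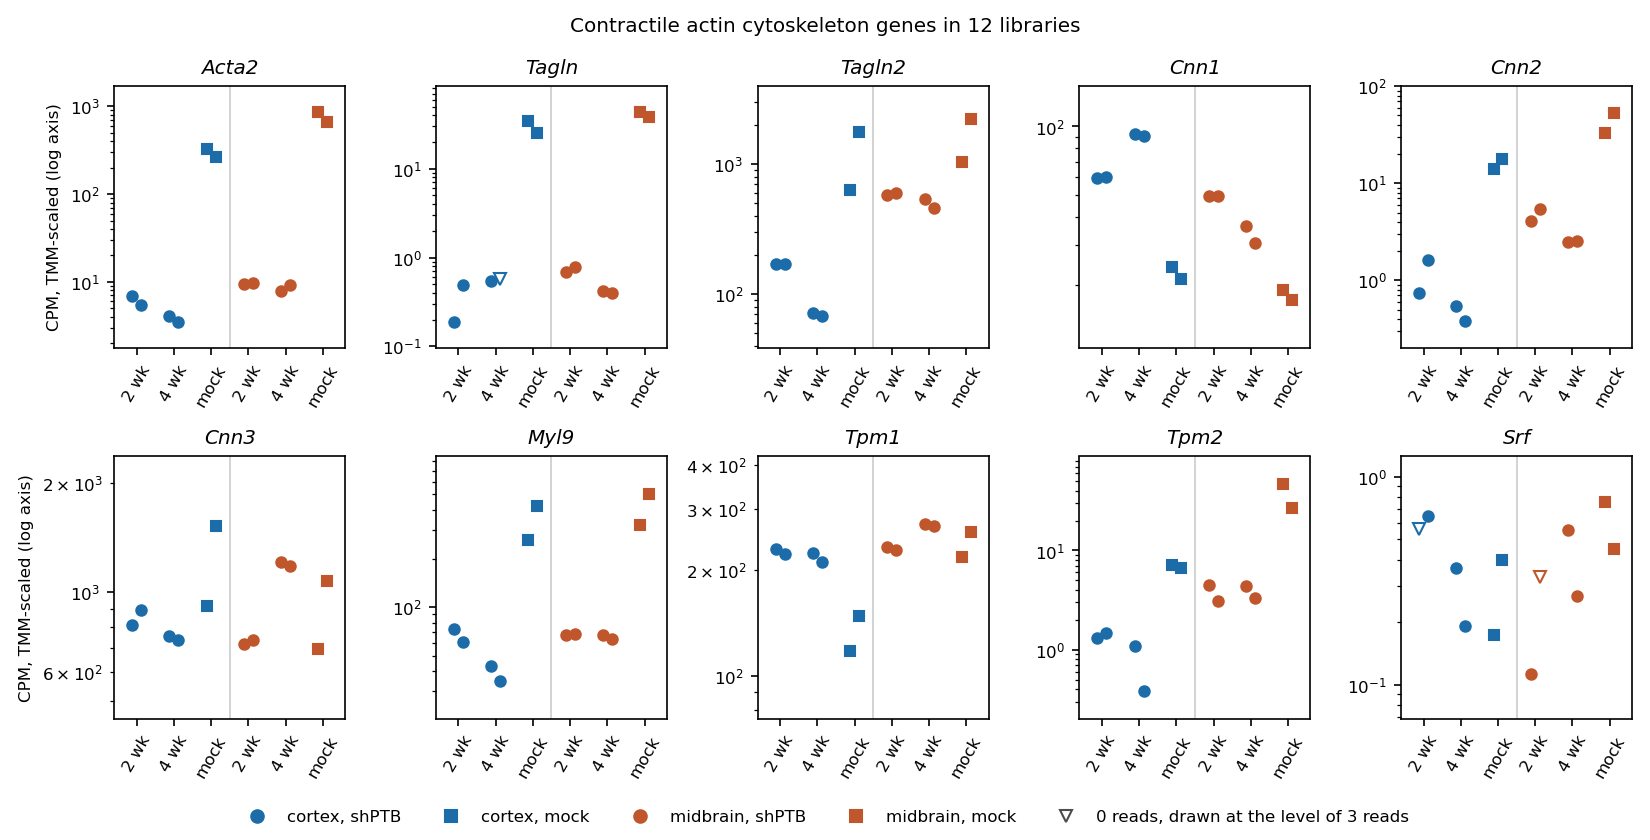
Level of each of the 10 genes in every library, in TMM-scaled CPM on a log axis that differs between panels; circles are shPTB cultures at 2 and 4 weeks and squares are mock cultures, blue for cortex and orange for midbrain. Acta2, Tagln, Tagln2, Cnn2, Myl9 and Tpm2 lie below their mock libraries in every shPTB library, and Cnn1 lies above them on this scale. The share of all genes that separate in this way is not given. In midbrain at 4 weeks the Cnn1 difference is 0.01 on the log2 scale when scaled by total reads and -0.06 with the length offset.

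The counts were read against all 14607 genes tested with edgeR's quasi-likelihood test (Benjamini-Hochberg adjusted p under 0.05). In cortex at 2 weeks 6 of the 9 genes tested were lower and 2 higher, where 17.6% of all genes were lower and 17.5% higher. In cortex at 4 weeks it was again 6 lower and 2 higher, against 20.9% and 18.5% of all genes. In midbrain 6 were lower and 1 higher at 2 weeks, against 14.7% and 15.9% of all genes, and 6 lower and 1 higher at 4 weeks, against 20.4% and 18.7%. The median log2 fold change of the 9 genes was -2.35 and -3.17 in cortex at 2 and 4 weeks and -2.62 and -2.65 in midbrain, where all genes had medians of -0.11, -0.12, -0.07 and -0.15. Scaling by total reads moved the all-gene medians to -0.85, -1.21, -0.74 and -1.01, and an offset for transcript length to -0.63, -0.84, -0.64 and -0.79, so that a gene's change under these scalings is to be read against those values.

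**Figure D2:**
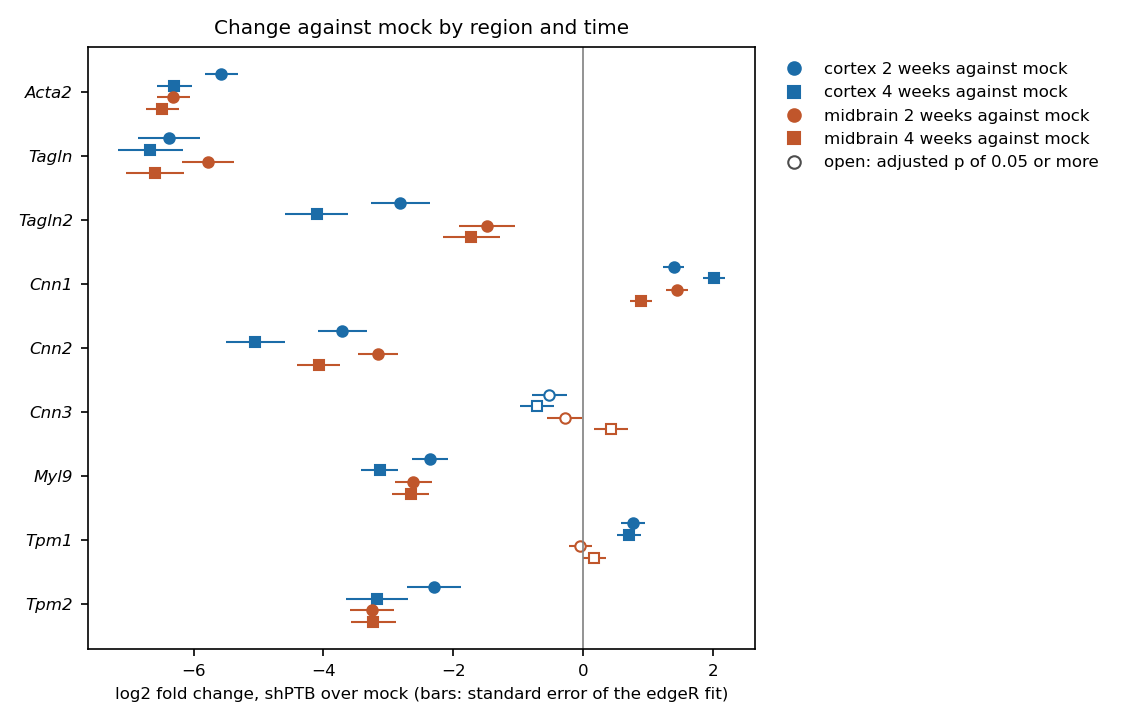
Log2 fold change of shPTB over mock for the 9 genes tested, with the standard error of the edgeR fit as bars; circles are 2 weeks and squares 4 weeks, and open symbols did not pass the threshold. Acta2 and Tagln lie between -5.57 and -6.67, Cnn1 lies between 0.89 and 2.02, and the midbrain values of Tpm1 lie near 0. Cnn3 runs from -0.71 in cortex at 4 weeks to 0.43 in midbrain at 4 weeks, all with open symbols. The Cnn1 value of midbrain at 4 weeks becomes -0.06 with the length offset, and the cortical Tpm1 value at 4 weeks becomes -0.36 with scaling by total reads. The midbrain Tpm1 values, and those of Cnn3 except in cortex at 4 weeks, change sign under some settings.

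Acta2 (chr19:34241090-34255590, minus strand; gene positions are on GRCm38) encodes smooth muscle alpha-actin, the actin isoform of contractile stress fibres. It had 6.93 and 5.52 CPM in cortex at 2 weeks and 4.03 and 3.46 CPM at 4 weeks of shPTB, against 329.6 and 262 CPM in cortex mock. In midbrain it had 9.51 and 9.71 CPM at 2 weeks and 7.88 and 9.24 CPM at 4 weeks of shPTB, against 862 and 670.1 CPM in mock. The shPTB and mock libraries of a region were far from overlapping. Lack of overlap, here and below, describes single genes only, as its share over all genes is not given. The log2 fold change was -5.57 ± 0.25 and -6.30 ± 0.27 in cortex at 2 and 4 weeks and -6.32 ± 0.25 and -6.48 ± 0.26 in midbrain (edgeR fit ± SE, adjusted p = 2.358e-07, 1.671e-07, 1.683e-07 and 1.187e-07). In linear terms it was 47.6-fold and 78.7-fold lower in cortex and 79.6-fold and 89.4-fold lower in midbrain.

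Tagln (chr9:45929619-45936058, minus strand) encodes transgelin, an actin-bundling protein of smooth muscle, and was nearly unread in shPTB cultures. Its counts were 1 and 3 reads in cortex at 2 weeks and 3 and 0 reads at 4 weeks of shPTB, against 592 and 316 reads in cortex mock. In midbrain they were 6 and 7 reads at 2 weeks and 3 and 3 reads at 4 weeks of shPTB, against 798 and 587 reads in mock. Every shPTB library held fewer Tagln reads than any mock library of its region. The log2 fold change was -6.37 ± 0.48 in cortex at 2 weeks, -5.78 ± 0.40 in midbrain at 2 weeks and -6.59 ± 0.44 in midbrain at 4 weeks (edgeR adjusted p = 4.67e-06, 2.556e-06 and 1.771e-06). In cortex at 4 weeks the group's 3 reads set against 908 in mock make it 108-fold lower, with an exact 95% counting interval of 37.0 to 526.5, and the edgeR adjusted p was 3.39e-06. Without the second cortical library of 2 weeks the log2 fold change there became -7.23, and without the second of 4 weeks it became -5.73, while the first of 4 weeks, left out, leaves a group at 0 reads. The 3′ part of Tagln lies opposite Pcsk7 over 108 bases, at 3.88 to 10.4 CPM, and opposite the antisense gene Gm48529; no source names the strand setting of the counting.

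Tagln2 (chr1:172500047-172507380, plus strand) encodes a relative of transgelin found in many nonmuscle cells, and fell less, more in cortex than in midbrain by value. In cortex it had 172 and 171 CPM at 2 weeks and 71.8 and 68.6 CPM at 4 weeks of shPTB, against 636 and 1779 CPM in mock. In midbrain it had 579 and 600.7 CPM at 2 weeks and 538.5 and 456.5 CPM at 4 weeks of shPTB, against 1041 and 2235 CPM in mock. The groups did not overlap, and the mock libraries of each region differed more than 2-fold while the shPTB pairs lay close together. Log2 fold changes were -2.82 ± 0.45 and -4.10 ± 0.48 in cortex and -1.47 ± 0.43 and -1.72 ± 0.44 in midbrain at 2 and 4 weeks (edgeR adjusted p = 0.00081, 7.745e-05, 0.0246 and 0.00982). Without the second cortical mock library the cortical values were -1.90 and -3.18 and still passed. Without the second midbrain mock library the midbrain values were -0.82 and -1.07 and no longer passed (adjusted p = 0.142 and 0.0583). Leaving out either midbrain shPTB library of the time compared also ended the midbrain calls, with adjusted p of 0.117 and 0.132 at 2 weeks and of 0.0559 and 0.0825 at 4 weeks.

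The calponins, which bind actin and restrain myosin's ATPase, went in different directions. Cnn2 (chr10:79988584-79996062, plus strand), the calponin of nonmuscle and immune cells, had 0.749 and 1.62 CPM in cortex at 2 weeks and 0.549 and 0.384 CPM at 4 weeks of shPTB, against 14.0 and 17.98 CPM in mock. In midbrain Cnn2 had 4.07 and 5.41 CPM at 2 weeks and 2.49 and 2.54 CPM at 4 weeks of shPTB, against 32.7 and 52.3 CPM in mock. All shPTB libraries lay below the mock libraries of their region. Its log2 fold change was -3.71 ± 0.38 and -5.05 ± 0.46 in cortex and -3.16 ± 0.31 and -4.07 ± 0.33 in midbrain at 2 and 4 weeks (edgeR adjusted p = 3.913e-05, 1.202e-05, 2.909e-05 and 6.617e-06). The cortical value at 2 weeks rests on 4 and 10 reads, and was -4.40 without the second of these libraries.

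Cnn1 (chr9:22099216-22109630, plus strand), the calponin of differentiated smooth muscle, had 59.2 and 59.6 CPM in cortex at 2 weeks and 92.5 and 90.5 CPM at 4 weeks of shPTB, against 24.0 and 21.1 CPM in mock. In midbrain it had 49.3 and 49.1 CPM at 2 weeks and 36.2 and 30.7 CPM at 4 weeks of shPTB, against 18.9 and 17.1 CPM in mock. On this scale every shPTB library lay above the mock libraries of its region, in contrast to Acta2 and Tagln. The log2 fold change was 1.40 ± 0.17 and 2.02 ± 0.17 in cortex and 1.45 ± 0.17 and 0.89 ± 0.17 in midbrain at 2 and 4 weeks (edgeR adjusted p = 0.000108, 6.492e-06, 8.909e-05 and 0.0017). With an offset for transcript length the values were 0.56, 0.91, 0.51 and -0.06, of which only cortex at 4 weeks passed, and scaling by total reads left 0.01 in midbrain at 4 weeks. The effective length that Salmon gave its main transcript was 3310 to 3874 bases in shPTB and 1568 to 2199 bases in mock libraries, and the deposited TPM of Cnn1 averaged 6.78 and 6.39 in cortex at 2 and 4 weeks of shPTB, against 8.24 in mock.

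Cnn3 (chr3:121426497-121458207, plus strand), the acidic calponin known from brain, stayed among the most read genes of the set. It had 808.5 and 891 CPM in cortex at 2 weeks and 755 and 737.5 CPM at 4 weeks of shPTB, against 917 and 1520 CPM in mock. In midbrain it had 718 and 737.5 CPM at 2 weeks and 1211 and 1179 CPM at 4 weeks of shPTB, against 696 and 1076 CPM in mock. The cortical groups did not overlap and the midbrain groups did. The log2 fold changes of -0.52 ± 0.27, -0.71 ± 0.27, -0.28 ± 0.27 and 0.43 ± 0.27, in cortex and then midbrain at 2 and 4 weeks, did not pass edgeR's test (adjusted p = 0.1545, 0.0565, 0.444 and 0.221). Its calls turned on the setting: the cortical value at 4 weeks passed in 10 alternatives, among them scaling by total reads (-1.74), and that at 2 weeks in 3. In midbrain at 4 weeks Cnn3 passed as higher with the length offset (1.08, adjusted p = 0.00276) and without the second mock library (0.78, adjusted p = 0.0496), and as lower with scaling by total reads (-0.41, adjusted p = 0.0369). Its most read transcript, Cnn3-208 of 261 bases, ends before the annotated 3′ end of the gene. Of the 31-base words of Cnn3-208, 26.4% occur also in other genes, of which Gm17936 shares most.

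Myl9 (chr2:156775420-156781658, plus strand) encodes the regulatory light chain of smooth muscle and nonmuscle myosin, whose phosphorylation starts contraction. It had 73.0 and 60.9 CPM in cortex at 2 weeks and 43.0 and 34.8 CPM at 4 weeks of shPTB, against 259.6 and 424 CPM in mock. In midbrain the levels were 66.7 and 67.6 CPM at 2 weeks and 67.0 and 63.7 CPM at 4 weeks of shPTB, against 323 and 500.6 CPM in mock. None of the shPTB libraries reached the mock libraries of its region. The log2 fold change was -2.35 ± 0.28 and -3.13 ± 0.29 in cortex and -2.62 ± 0.28 and -2.65 ± 0.28 in midbrain at 2 and 4 weeks (edgeR adjusted p = 0.00011, 1.521e-05, 5.859e-05 and 4.506e-05).

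The tropomyosins are coiled coils that lie along actin filaments and control what binds them. Tpm2 (chr4:43514711-43523765, minus strand) had 1.31 and 1.46 CPM in cortex at 2 weeks and 1.10 and 0.384 CPM at 4 weeks of shPTB, against 7.09 and 6.60 CPM in mock. In midbrain Tpm2 had 4.53 and 3.09 CPM at 2 weeks and 4.42 and 3.35 CPM at 4 weeks of shPTB, against 46.4 and 26.5 CPM in mock. The groups did not overlap in either region, and cortical shPTB libraries held 2 to 9 reads. The log2 fold change of Tpm2 was -2.29 ± 0.42 and -3.17 ± 0.48 in cortex and -3.26 ± 0.34 and -3.23 ± 0.35 in midbrain at 2 and 4 weeks (edgeR adjusted p = 0.00172, 0.000402, 4.827e-05 and 4.55e-05). Without the first cortical library of 4 weeks the value there was -4.12.

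Tpm1 (chr9:67022590-67049406, minus strand) did not follow Tpm2. It had 230.1 and 223 CPM in cortex at 2 weeks and 223 and 211 CPM at 4 weeks of shPTB, against 118 and 148 CPM in mock. In midbrain it had 232 and 228 CPM at 2 weeks and 270.1 and 267 CPM at 4 weeks of shPTB, against 217 and 257 CPM in mock. The cortical shPTB libraries lay above mock and the midbrain groups overlapped. In cortex it was higher by 0.77 ± 0.18 and 0.71 ± 0.18 at 2 and 4 weeks (edgeR adjusted p = 0.00667 and 0.00891), and in midbrain the values were -0.04 ± 0.18 and 0.18 ± 0.18 (adjusted p = 0.872 and 0.446). With total-read scaling the midbrain values were -0.70 and -0.68 and passed as lower (edgeR adjusted p = 0.00139 and 0.00113). All genes had medians of -0.74 and -1.01 under that scaling. Scaled to total reads, the cortical values were 0.06 and -0.36, and with the length offset 0.23 and 0.26, so these calls held only with the scalings that centre on the bulk of genes. They also did not pass when only cortical mock and shPTB groups of that time were fitted (adjusted p = 0.0808 and 0.1005), nor without the first cortical shPTB library of the time compared (0.055 and 0.0719).

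Srf itself (chr17:46548329-46556175, minus strand), the transcription factor, was read 0 to 14 times in a library. It had 0 and 4 reads in cortex at 2 weeks and 2 and 1 reads at 4 weeks of shPTB, against 3 and 5 reads in mock. In midbrain it had 1 and 0 reads at 2 weeks and 4 and 2 reads at 4 weeks of shPTB, against 14 and 7 reads in mock. The cortical groups overlapped, and so did those of midbrain over both times. Set against depth, the 1 read of midbrain at 2 weeks makes it 11.1-fold lower than mock, with an exact 95% counting interval of 1.78 to 457, and in cortex at 4 weeks the ratio of mock to shPTB was 0.955, interval 0.229 to 5.59. A change of Srf was not detectable at this depth in cortex.

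Although its total on the TMM scale hardly moved in midbrain, Tpm1 changed in which of its last exons was read. The libraries were primed at the 3′ end of RNA, so reads report last exons and not the internal exons. Of 21 Tpm1 transcripts in the files, 10 end at the downstream last exon (chr9:67022622-67023441 for the main one, Tpm1-220, GRCm38, minus strand) and 5 at an upstream one (chr9:67027892-67028167 for Tpm1-205), with 4450 bases between them. The downstream last exon held 1.46 and 1.46% of Tpm1 reads in cortex at 2 weeks and 1.40 and 1.73% at 4 weeks of shPTB, against 26.4 and 14.9% in mock. In midbrain it held 3.12 and 1.89% at 2 weeks and 2.35 and 2.81% at 4 weeks of shPTB, against 25.6 and 17.2% in mock. All 8 shPTB libraries lay far below all 4 mock libraries. The mean difference was -19.0 percentage points for the downstream exon and 21.3 for the upstream exon (exact two-sided permutation test within region, p = 0.004444 for each, the smallest that 225 permutations can give, and 0.004444 after Benjamini-Hochberg adjustment over the 4 ends tested).

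In absolute terms the downstream exon averaged 3.31 and 3.38 CPM in cortex at 2 and 4 weeks of shPTB, against 26.6 CPM in mock, and 5.77 and 6.93 CPM in midbrain, against 49.9 CPM in mock. The upstream exon averaged 223 and 213 CPM in cortex at 2 and 4 weeks of shPTB, against 103 CPM in mock, and 224 and 261 CPM in midbrain, against 182 CPM in mock. On this scale the downstream exon was lower in shPTB, as Acta2 and Tpm2 were, and the upstream exon was not. Computed from TPM, which divides by effective length, the differences were -9.56 and 10.7 points. The main upstream transcript had an effective length of 481 to 605 bases in shPTB and 316 to 371 bases in mock libraries.

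**Figure D3:**
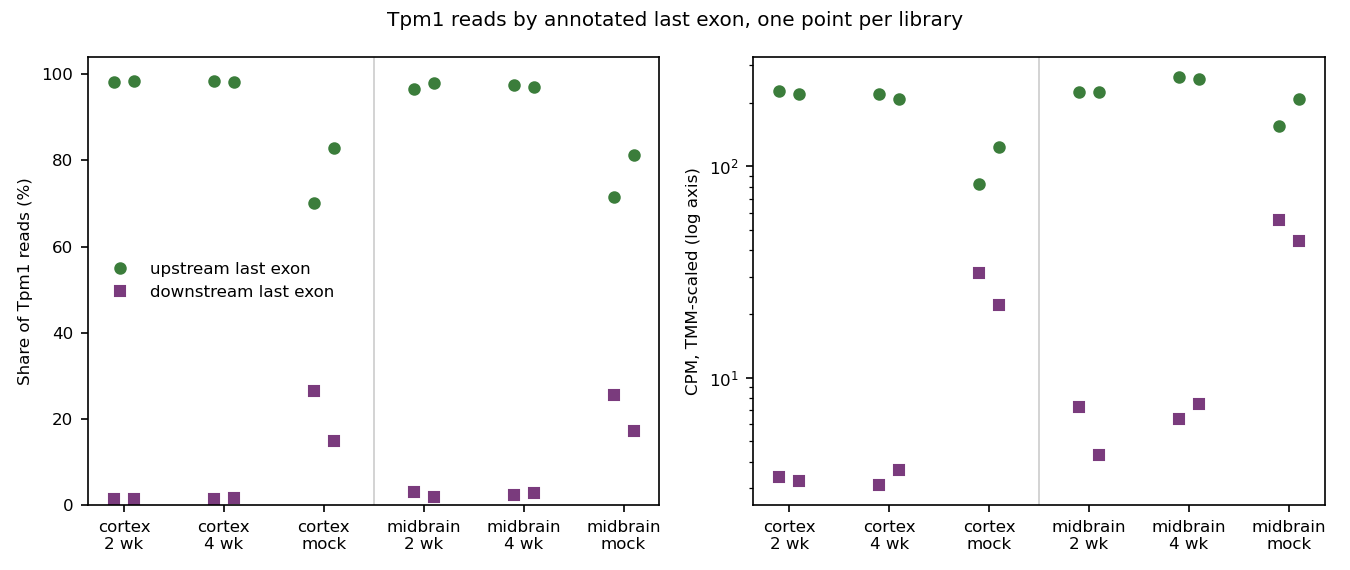
Tpm1 reads assigned to the upstream (green circles) and downstream (purple squares) last exon, as a share of Tpm1 reads in percent on the left and as TMM-scaled CPM on a log axis on the right, with 1 point for each of the 12 libraries. The downstream exon holds 1.40 to 3.12% in shPTB libraries and 14.9 to 26.4% in mock libraries.

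Cnn3 was the only other gene of the set with enough reads at more than 1 end. Its short transcript Cnn3-208 took 78.7 to 90.1% of its reads, and the share of the merged end that holds it was 6.22 percentage points higher in shPTB than in mock (exact permutation p = 0.004444). That transcript of 261 bases lies within the last exon of a longer one, so the split rests on Salmon's model, and the other 8 genes had fewer than 20 reads in a library or a single end in use.

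Levels of different genes were compared per length, as deposited TPM, without Cnn3, whose short transcript has an effective length of only 25.0 to 42.1 bases. Reads at 3′ ends need not scale with length, so this order depends on the effective lengths. In shPTB cultures Tpm1 had the highest TPM, with means of 149 and 108 in cortex at 2 and 4 weeks and 191 and 187 in midbrain. Tagln2 followed at 26.6, 10.3, 72.5 and 72.3 TPM and Myl9 at 21.3, 8.04, 21.6 and 19.1 TPM in the same groups. Acta2 stood at 0.894, 0.282, 1.49 and 1.24 TPM there. In reads without division by length, Tagln2 stood above Tpm1 in midbrain, with 579 and 600.7 CPM at 2 weeks of shPTB where Tpm1 had 232 and 228 CPM. In cortex mock the order was Myl9 at 328 ± 59.7, Tagln2 at 255 ± 47.5, Tpm1 at 217 ± 29.5 and Acta2 at 156 ± 99.0 TPM (SD, n = 2 each), in which each gene overlapped its neighbour. By CPM Tagln2 came first there, at 1208, then Myl9 at 342, Acta2 at 296 and Tpm1 at 133. Tpm2 at 11.9, Tagln at 11.2 and Cnn1 at 8.24 TPM formed a lower group whose neighbours also overlapped, and Cnn2 lay below them at 2.47 and Srf at 0.0552 TPM. In midbrain mock Acta2 at 466 ± 235 TPM overlapped Myl9 at 453 ± 6.20, Tpm1 at 430.4 ± 6.01 and Tagln2 at 359 ± 85.1 TPM. Myl9 lay above Tpm1 in both libraries.

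The regions were compared within each state. In mock cultures 4 of the 9 genes were higher in midbrain than in cortex and 0 lower, where 1.25% of all genes were higher. Acta2 was higher by 1.37 ± 0.20 on the log2 scale, Cnn2 by 1.41 ± 0.27, Tpm1 by 0.84 ± 0.18 and Tpm2 by 2.41 ± 0.31 (edgeR adjusted p = 0.00424, 0.0228, 0.0364 and 0.00189), and the 4 midbrain and cortex values of each did not overlap. The call of Cnn2 was lost when 1 of several libraries was left out, and that of Tpm1 likewise, with adjusted p of up to 0.107 and 0.137, both without the second midbrain mock library. When only the 4 mock libraries were fitted, 0 genes of the set passed, and 0 of all 14134 genes tested there. With the replicate number added to that fit as a block, 7 genes of the set passed, and 2200 of the 14134.

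At 2 weeks of shPTB 1 gene was higher in midbrain and 0 lower, against 2.01% of all genes higher. This was Cnn2, by 1.96 ± 0.41 on the log2 scale (edgeR adjusted p = 0.03), a call that was lost without any 1 of the 8 shPTB libraries and that stood at 2.64 without the second cortical one of 2 weeks. At 4 weeks 4 genes were higher in midbrain and 1 lower, against 5.48% and 2.51% of all genes. Tagln2 was higher by 2.83 ± 0.46, Cnn2 by 2.39 ± 0.56, Tpm2 by 2.35 ± 0.52 and Acta2 by 1.19 ± 0.26, and Cnn1 lower by a log2 fold change of -1.45 ± 0.17 (adjusted p = 0.00315, 0.0229, 0.0171, 0.0165 and 0.000375). Without any 1 of the 4 libraries of that time the calls of Acta2 and Cnn2 were lost, without either cortical one that of Tagln2 (adjusted p = 0.0521 and 0.0567), and without the second cortical or the first midbrain one that of Tpm2, while Cnn1 passed in each case. Without the first cortical library of 4 weeks the Tpm2 value was 3.30.

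Between 4 and 2 weeks of shPTB 0 of the 9 genes passed edgeR's test in cortex, where 2.77% of all genes did, and 0 in midbrain, where 2.66% did. At an unadjusted p under 0.05 there were 4 genes in cortex and 3 in midbrain, and DESeq2 called 0 in either. The values in cortex were lower at 4 weeks for 8 genes, among them Cnn2 with -1.34 ± 0.65 and Tagln2 with -1.29 ± 0.44 on the log2 scale. Cnn1 stood at 0.62 ± 0.16 in cortex and -0.56 ± 0.16 in midbrain (adjusted p = 0.0773 and 0.104). These counts depended on the samples fitted: with the 4 shPTB libraries of a region alone, 4 genes passed in cortex and 5 in midbrain. In these smaller fits the counts over all genes rose too, to 2608 of 10858 in cortex and 3903 of 12085 in midbrain. The main fit called 405 and 388 of 14607.

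The difference of the regional responses, midbrain minus cortex, passed for 0 of the 9 genes at 2 weeks, where 0.685% of all genes passed; 3 genes had an unadjusted p under 0.05 and DESeq2 called 0. The comparisons of both regions' responses share their mock libraries with those above. At 4 weeks it was lower for 1 gene, Cnn1, against 0.644% of all genes, with a difference of -1.13 ± 0.23 on the log2 scale (edgeR adjusted p = 0.0271). In the main fit Cnn1 was thus raised less in midbrain than in cortex at that time. The call was lost in 12 of the 23 alternatives, scaling by total reads among them (-0.90, edgeR adjusted p = 0.191). For Tagln2 the difference of 2.39 ± 0.61 did not pass (adjusted p = 0.0744).

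Related genes were counted from lists of smooth muscle and actin biology, chosen with earlier results of these data known. Of 20 further smooth muscle contractile genes 17 were tested. In cortex 10 were lower and 2 higher at each time, and in midbrain 10 were lower and 1 higher at 2 weeks and 9 lower and 1 higher at 4 weeks. Of all genes 17.6% and 20.9% were lower in cortex at 2 and 4 weeks and 14.7% and 20.4% in midbrain, and 15.9 to 18.7% were higher. Their median log2 fold change at 4 weeks was -1.95 in cortex, or -1.91 with genes at 0 reads set to their bound, and -1.77 in midbrain, where all genes had -0.12 and -0.15. Flna, the actin crosslinker filamin A, averaged 23.2 CPM in cortex at 4 weeks of shPTB, against 273 CPM in mock (log2 fold change -3.56, adjusted p = 4.146e-06). Lmod1, a leiomodin that nucleates actin in smooth muscle, had 0 reads in all 8 shPTB libraries, and was at least 4.35-fold lower in cortex at 4 weeks than its 1.23 CPM in mock, computed against 3 reads over the group. Csrp1 and Csrp2, LIM proteins of the contractile apparatus, rose by 1.92 and 1.31 in cortex at 4 weeks and stood at 0.89 and 0.18 scaled by total reads.

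**Figure D4:**
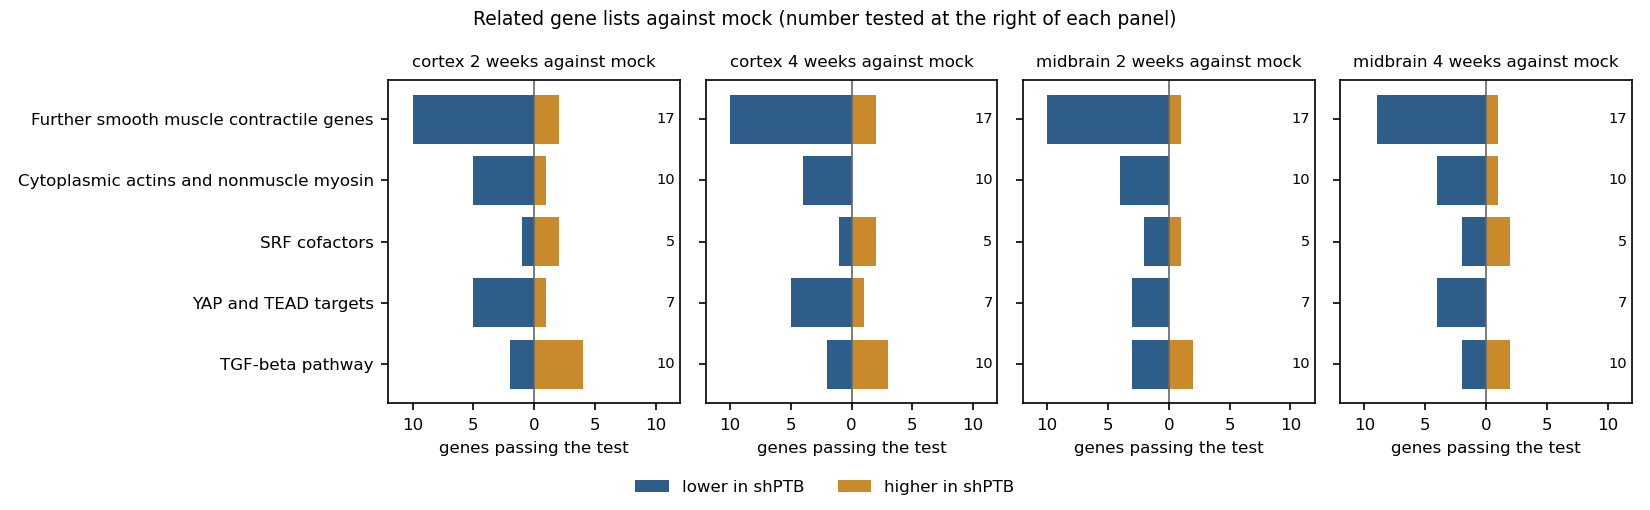
Number of genes that passed the test in each direction against mock, lower in shPTB to the left and higher to the right, for 5 lists of related genes; the number tested stands at the right of each panel. Lower genes outnumber higher ones in the smooth muscle list (10 and 2 of 17 in cortex at 4 weeks), the actin and myosin list and the YAP list, and higher ones are not in excess in the TGF-beta list of midbrain; the split of all calls leans further to lower genes when libraries are scaled by total reads.

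Among 10 cytoplasmic actins and nonmuscle myosin genes, 4 were lower and 0 higher in cortex at 4 weeks and 4 lower and 1 higher in midbrain at 4 weeks, where 20.9% and 20.4% of all genes were lower and 18.5% and 18.7% higher. Actb, the main cytoplasmic actin, averaged 186 CPM in cortex at 4 weeks of shPTB, against 1070 CPM in mock, a log2 fold change of -2.53 (adjusted p = 2.238e-05), and the crosslinker Actn4 fell by 1.49. Of 6 SRF cofactors 5 were tested. In cortex at 4 weeks Mrtfb rose by 1.11, or 0.04 scaled by total reads, and Elk1 by 0.92, or -0.20 scaled by total reads, while Elk3 fell by 1.85. Mrtfa was at 1.40 CPM in cortex at 4 weeks of shPTB, against 2.16 CPM in mock, and did not pass (adjusted p = 0.411). Myocd, the muscle-restricted cofactor, had 0 reads in 11 of the 12 libraries.

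Of 7 tested YAP and TEAD targets and components, 5 were lower and 1 higher in cortex at 4 weeks and 4 lower and 0 higher in midbrain, beside the same shares of all genes. The secreted target products Ccn2 and Ccn1 fell by 2.46 and 2.12 in cortex. In midbrain Ccn2 stood at 0.29 and 0.49 on the log2 scale at 2 and 4 weeks (-0.35 and -0.36 scaled by total reads) and did not pass, while Ccn1 stood at -0.46 at 2 weeks without passing and fell by 1.26 at 4 weeks. In cortex at 4 weeks the coactivator Yap1 rose by 0.64, or -0.49 scaled by total reads. For the TGF-beta pathway, an inducer of Acta2 and Tagln in fibroblasts, 3 of 10 genes were higher and 2 lower in cortex at 4 weeks, counts near those that the shares of all genes (18.5% and 20.9%) would give for 10 genes. The ligand Tgfb1 fell by 4.11 in cortex, Tgfb3 rose by 1.76 (0.61 scaled by total reads), the repressor Skil rose by 0.81 (-0.25 scaled by total reads) and the receptor Tgfbr1, which passed as lower, averaged 0.183 CPM in shPTB, against 1.92 CPM in mock.

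Other cell types were followed by their markers, and whether they express the genes of the set was not tested. The 6 microglia markers summed to 56.4 to 58.1 CPM in cortex at 2 weeks and 17.2 to 20.2 CPM at 4 weeks of shPTB, against 1008 to 1553 CPM in mock, and to 26.3 to 26.7 and 10.1 to 12.2 CPM in midbrain, against 1135 to 1429 CPM in mock. All 6 were lower in all 4 comparisons. The 8 fibroblast and meningeal markers summed to 247 to 254 CPM in cortex at 4 weeks of shPTB, against 620.1 to 836 CPM in mock, with 4 lower and 1 higher, and to 743 to 774 CPM in midbrain, against 1266 to 1617 CPM in mock, with 4 lower and 2 higher. At 2 weeks 4 of them were lower and 2 higher in cortex, and 2 lower and 3 higher in midbrain. Fbln1 made up most of the shPTB sums at 4 weeks and was higher than in mock by mean. It averaged 204 CPM in cortex, against 126 CPM in mock, and 516 CPM in midbrain, against 62.7 CPM. Col1a1 averaged 10.7 CPM in cortex at 4 weeks of shPTB, against 359 CPM in mock, and 103 CPM in midbrain, against 970 CPM. Col1a2 averaged 6.68 CPM in cortex, against 136 CPM, and 51.1 CPM in midbrain, against 352 CPM. The 11 vascular smooth muscle and pericyte markers summed to 7.33 to 9.03 CPM in cortex at 4 weeks of shPTB, against 20.1 to 35.8 CPM in mock, with 3 lower and 1 higher of 6 tested, and to 20.6 to 21.4 CPM in midbrain, against 31.8 to 48.8 CPM in mock, with 2 lower and 3 higher. Of their defining genes Higd1b had 0 reads in all 12 libraries, Des at most 2, Mcam at most 3 and Myh11 at most 9. Others of that list passed as higher in midbrain at both times. Rgs5 averaged 4.52 and 2.11 CPM there at 2 and 4 weeks of shPTB, against 0.227 CPM in mock. Kcnj8 averaged 3.46 and 5.03 CPM, against 0.155 CPM in mock, and Pdgfrb 2.35 and 2.59 CPM, against 0.728 CPM in mock. Notch3 and Cspg4 went the other way by mean in midbrain. Notch3 averaged 16.4 and 10.9 CPM, against 29.3 CPM in mock, and Cspg4 0.443 and 0.067 CPM, against 8.08 CPM in mock. In cortex at 4 weeks of shPTB Rgs5 averaged 0.476 CPM, against 0.630 CPM in mock, and Kcnj8 0 CPM, against 0.0581 CPM. Pdgfrb averaged 2.25 CPM there, against 0.635 CPM in mock, and Notch3 4.60 CPM, against 20.2 CPM. Of 6 endothelial markers 4 were tested, of which 0 passed in cortex at 2 weeks, 4 were lower in cortex at 4 weeks, 2 were lower and 1 higher in midbrain at 2 weeks and 2 were lower in midbrain at 4 weeks, and Tek had 0 reads in all libraries. The part of these cell types, and that of the mitochondrial share, in the falls of the contractile genes was not tested.

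The genes nearest to Acta2 in profile were ranked by the root mean square difference of mean log2(CPM + 1) over the 6 groups, each profile centred on its mean, among 7025 genes with at least 10 CPM in 1 group. The nearest were Gm9531, a processed pseudogene (0.62), Cx3cr1 (0.64), Bgn (0.69), C1qc (0.69) and Fcrls (0.72). Of these Cx3cr1, C1qc and Fcrls are known microglia genes, and Bgn encodes the matrix proteoglycan biglycan. Bgn averaged 0.288 CPM in cortex at 4 weeks of shPTB, against 23.9 CPM in mock, and 1.78 CPM in midbrain, against 135.8 CPM in mock. Within the set Tagln was nearest to Acta2 at 0.72, Cnn2 followed at 1.30, Myl9 at 1.61, Tpm2 at 1.69 and Tagln2 at 1.82. Among all 14607 genes tested, Tagln ranked 6, Cnn2 43, Myl9 129, Tpm2 176 and Tagln2 267 in nearness to Acta2. Cnn1 was the farthest of the tested genes of the set at 3.58.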

How the data were processed

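Primers bound the 3′ end of RNA in these 12 mouse astrocyte libraries, per the labels' protocols, which describe no molecular identifiers. The submitters' processing notes name cutadapt 2.3, Salmon 0.14.1 and DESeq2, with mm10 as build, and no annotation release. The authors deposited an estimated count for each transcript, as Salmon gives it, with no scaling between libraries. Each deposited TPM value is relative to its own library and uses an effective length that Salmon estimated there.

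GENCODE M21 (GRCm38) gave the gene of 140137 of 140658 transcripts. The other 521, holding 0.0547 to 0.129% of a library's reads, did not enter. Because 56.3% of the positive values were fractional, sums over each of the 54356 genes were rounded before testing. filterByExpr (count minimum 10, total minimum 15) kept 14607 genes. edgeR 4.0.16 in R 4.3.3 fitted all 6 groups together by its quasi-likelihood test with TMM scaling (common dispersion 0.0550), in 11 contrasts, and p-values were adjusted over all genes tested by Benjamini-Hochberg at 0.05. The steps were tested on simulated data. Alternatives were RLE factors, total-read scaling, leaving out mitochondrial genes, 2 other filters, a length offset, a replicate block, smaller fits, each library left out and DESeq2 1.42.0. A fit that leaves 1 library in a group assumes that it varies like the others.

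Ends of transcripts within 200 bases were merged, and shares were tested (Python 3.11.15, scipy 1.17.1) for genes with at least 20 reads in every library and at least 2 ends with 5% of reads in a group mean. The named genes were all 10 genes against mock, those called elsewhere, up to 2 called genes with the largest rise and fall in cortex at 4 weeks from each related list, and the 5 profiles nearest to Acta2; Srf was not ranked, as it was not tested. Genes, lists and markers were chosen with earlier results of these data known. Of the related lists, 1 is not reported here.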

Additional observations from a re-analysis of the deposited data

Results flagged for a closer look

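In the main fit Cnn1 responded differently in the regions at 4 weeks. The difference of the log2 fold changes against mock, midbrain minus cortex, was -1.13 ± 0.23. The interaction contrast of edgeR's quasi-likelihood test passed (adjusted p = 0.0271). Cnn1 had 36.2 and 30.7 CPM in midbrain and 92.5 and 90.5 CPM in cortex at 4 weeks of shPTB, and 18.9 and 17.1 CPM in midbrain mock and 24.0 and 21.1 CPM in cortex mock. The 2 midbrain libraries of 4 weeks lay below both of cortex. The call was lost in 12 of the 23 alternatives, with an edgeR adjusted p of 0.191 when scaled to total reads. Against mock, midbrain Cnn1 at 4 weeks stood at 0.01 on the log2 scale with that scaling and at -0.06 with the length offset.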

How the results depend on the processing

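Each library was left out in turn and 11 other settings were tried. The falls of Acta2, Tagln, Cnn2, Myl9 and Tpm2 against mock passed in all 23 alternatives in each of the 4 comparisons. Signs turned as follows. With the length offset Cnn3 stood at 0.046 in cortex and 0.27 in midbrain at 2 weeks, and at 4 weeks in midbrain Cnn1 stood at -0.065 and Tpm1 at -0.27. Scaled to total reads, Tpm1 stood at -0.36 in cortex and -0.68 in midbrain at 4 weeks, and Cnn3 at -0.41 in midbrain. Without both mock libraries numbered 2, Cnn3 stood at 0.065 and Tpm1 at 0.084 in midbrain at 2 weeks, where leaving out 1 library gave -0.57 to 0.060 for Cnn3 and -0.17 to 0.080 for Tpm1. The cause was not tested.

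Counts over all genes moved with the setting too. With only the groups compared, 2608 of 10858 genes passed for 4 against 2 weeks in cortex and 3903 of 12085 in midbrain. Between regions it was 0 of 14134 in mock, 3209 of 11986 at 2 weeks and 3681 of 10996 at 4 weeks. The differences of responses gave 34 of 14680 at 2 weeks and 164 of 14354 at 4 weeks. The main fit of 14607 genes called 405, 388, 320, 430, 1167, 100 and 372 in this order. Counts of genes of the set that passed moved as follows. For 4 against 2 weeks, against 0 each, cortex gave 2 scaled to total reads, 1 with no count filter, 2 with the length offset, 4 with only the groups compared and 4 without the mock libraries numbered 1 or those numbered 2, and midbrain gave 5 in the last 3 settings. Between regions in mock, against 4, it was 0 with only the groups compared and 7 without the mock libraries numbered 2. Between regions at 2 weeks, against 1, it was 2 scaled to total reads, with the strict filter, with the replicate block and with DESeq2, 3 with no filter, 0 with the length offset, 6 with only the groups compared, and 5 and 6 without the mock libraries numbered 1 and 2. At 4 weeks, against 5, it was 8 scaled to total reads, with only the groups compared and without either pair of mock libraries. The difference of responses at 2 weeks, against 0, gave 1 with no filter, and 4 and 3 without the mock libraries numbered 1 and 2. At 4 weeks, against 1, it gave 2 scaled to total reads, with the length offset, with the replicate block and with DESeq2, 3 with no filter, 0 with only the groups compared and 5 without either pair of mock libraries. With 1 library left out the counts ran from 0 to 2 (cortex, 4 against 2 weeks), 2 to 4 (mock), 0 to 2 and 1 to 7 (regions at 2 and 4 weeks) and 0 to 3 (difference at 4 weeks).

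Same-numbered mock libraries of cortex and midbrain deviated together (r = 0.897 across 5679 genes, which are not independent replicates), and other pairs had r of -0.096 to 0.164. The labels do not say what same-numbered libraries share, and the main fit has no term for it. The replicate block called 5564, 6090, 5007 and 6167 genes of all in the 4 comparisons with mock, against 5117, 5753, 4470 and 5721. Its fit to the 4 mock libraries alone was a setting chosen after seeing the data. That fit gave 7 genes of the set and 2200 of all 14134 tested there. Of all calls, 49.8, 47.0, 51.8 and 47.8% were higher in shPTB, against 16.5, 9.28, 17.1 and 13.1% scaled to total reads. Depth limits Srf, Tagln, Cnn2 and Tpm2 in shPTB cultures.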
